A study of Mus musculus with 168 samples.

Results

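The microRNA genes Mir183, Mir96 and Mir182 form 1 short cluster, and the data below follow these 3 genes through the hippocampus of a Huntington's disease allelic series. The members were the rows of the deposited counts table whose Ensembl transcript identifiers map in GENCODE M21 to these names, which gave 3 of the 1626 transcripts in the table. Short RNA was sequenced from 8 libraries in each of 21 groups made by 7 genotypes and 3 ages (2, 6 and 10 months, denoted 2m, 6m and 10m). All mice were of the strain C57BL/6. The genotypes were heterozygous knock-in mice, in which 1 Htt allele is the endogenous one and the other holds a human HTT exon 1 with a CAG repeat of 20 (Q20), 80 (Q80), 92 (Q92), 111 (Q111), 140 (Q140) or 175 (Q175) units, and wild type (WT) littermates of the Q20 line. The knock-in allele sits in the endogenous gene and is not restricted to a cell type, and the Q175 line arose from the Q140 line by expansion of its repeat, so these lines are related. WT and Q20 served together as controls. Groups held 4 females and 4 males, except Q80 at 2m (3 and 5) and Q20 at 10m (5 and 3). Each library came from 1 animal, so p-values measure the spread between animals.

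MicroRNAs are short RNAs cut from a hairpin precursor, and bases 2 to 8 of the mature strand, the seed, pair with target messages. Mir183, Mir96 and Mir182 are known as sensory microRNAs: they lie together in vertebrate genomes, are made from a shared primary transcript, and are abundant in photoreceptors, the hair cells of the inner ear and other sensory neurons. In mouse and human, changes in the seed of miR-96 cause hearing loss.

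All 3 genes lie on the minus strand of chromosome 6 (GRCm38, the build also called mm10). Mir183, whose transcript is ENSMUST00000083685, spans chr6:30169668-30169737 and holds 70 bases. Mir96 (ENSMUST00000083652) spans chr6:30169446-30169551 and holds 106 bases, with 116 bases between it and Mir183. Mir182 (ENSMUST00000102406) spans chr6:30165918-30165992 and holds 75 bases, 3453 bases from Mir96. The whole cluster covers 3820 bases and overlaps no other annotated gene, so its members are intergenic. The nearest gene is the lincRNA Rncr4 on the plus strand, 3156 bases away, followed by the protein-coding genes Nrf1 at 12460 bases and Ube2h at 41552 bases. One other gene typed as a microRNA, Gm23049, lies within 200 kb, at a distance of 177429 bases. The counted features are whole hairpins, so the strands of a hairpin were not separated.

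The main mature strands are shown because their seeds are what set the members apart. RefSeq sequences (GRCm38.p6) matched all 3 members, and the capitals mark the seed.
miR-183-5p: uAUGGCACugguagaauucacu
miR-96-5p: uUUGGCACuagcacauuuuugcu
miR-182-5p: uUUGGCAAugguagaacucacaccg

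The seeds are close but not shared. Counted from the 5′ end of the mature strand, the seeds of miR-183-5p and miR-96-5p differ by A2U, those of miR-96-5p and miR-182-5p by C8A, and those of miR-183-5p and miR-182-5p by both A2U and C8A. Over the whole strand, miR-183-5p and miR-182-5p share 18 of 22 aligned positions, against 13 of 22 for miR-183-5p and miR-96-5p and 12 of 23 for miR-96-5p and miR-182-5p. Of the 1738 mature strands in the RefSeq table, only that of miR-1271-5p holds the seed of a member outside the cluster, namely that of miR-96-5p.
miR-1271-5p: cUUGGCACcugguaagcacuca

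The transcript of miR-1271-5p (Gm24195, chromosome 13) was nearly absent from the hippocampus. It was listed at 0 in 141 libraries and above 0 in 27, and its highest count in a library was 3. It did not pass the filter on low counts and was not tested.

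The members differed widely in abundance. Counts of a hairpin were scaled by TMM, edgeR's trimmed-mean factor, and are given as CPM, the usual scaling to a common library size, here relative to the total over the 470 transcripts that passed the filter, so they depend on hairpin length. Mir182 had 104 to 5223 raw counts in a library (median 461), Mir183 had 10 to 768 (median 54.5) and Mir96 had 0 to 28 (median 2), with a 0 for Mir96 in 32 libraries. Library totals ran from 2117539 to 9099227 counts with a median of 3374648, so Mir96 is measured with little precision at this depth. Per kilobase of hairpin, the mean over all libraries was 2379 CPM per kb for Mir182, 339 for Mir183 and 9.13 for Mir96. On this length-corrected scale Mir182 ranked 167th, Mir183 250th and Mir96 399th among the 407 tested transcripts with an annotated length. The 3 genes of this cluster were therefore detected in hippocampus, with Mir96 near the lower limit of detection. In 12 libraries at least 1 member stood far above the others of its group of 8, and the main comparisons are also given without them.

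The ratio of Mir182 to Mir183 varied less than either level. In CPM per kb it had a median of 8.44 at 2m (4.38 to 14.9), 7.01 at 6m (4.93 to 11.9) and 6.76 at 10m (4.82 to 10.2). Mir182 was thus the higher of this pair in every library.

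The 3 members rose with age. At 10m against 2m the members rose by 1.81 ± 0.18 (Mir183), 1.52 ± 0.17 (Mir182) and 1.26 ± 0.29 (Mir96) on the log2 scale (SE, all libraries), which is 3.51-fold, 2.86-fold and 2.39-fold. In edgeR's quasi-likelihood test with genotype and sex in the fit, the Benjamini-Hochberg adjusted p over 470 transcripts was 6.79e-18 for Mir183, 6.56e-15 for Mir182 and 1.10e-04 for Mir96. All 3 members passed the threshold of 0.05 as higher, as did 22.1% of all tested transcripts. Mir96 passed the filter on low counts through few libraries, most of them at 10m, such as the Q80 male M3 (9.17 CPM). Its calls as higher at 10m and its rank are therefore not independent of the filter. Ordered by the size of the difference, Mir183 stood first, Mir182 second and Mir96 at rank 4 of 470. The gene between them, Gm22118, was named only after its value was seen (1.38 ± 0.10 on the log2 scale). The median difference over all tested transcripts was -0.0032, and with total-count scaling in place of TMM the members rose by 1.85 (Mir183), 1.55 (Mir182) and 1.29 (Mir96).

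The levels by age show how far the groups moved and how far they overlapped. Mir183 had a median of 8.86 CPM at 2m (3.66 to 76.3), 14.5 CPM at 6m (5.46 to 52.2) and 30.0 CPM at 10m (12.8 to 251), with 56 libraries at each age. Mir182 had a median of 77.5 CPM at 2m (31.5 to 730), 112.6 CPM at 6m (52.3 to 417) and 214.5 CPM at 10m (97.7 to 1710). Mir96 had a median of 0.33 CPM at 2m (0 to 5.82), 0.51 CPM at 6m (0 to 3.98) and 1.0 CPM at 10m (0 to 9.17). The medians of all 3 members were in the order of age, while the ranges of neighbouring ages overlapped. Mir96 was listed at 0 in 22 libraries at 2m, 7 at 6m and 3 at 10m.

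**Figure D1:**
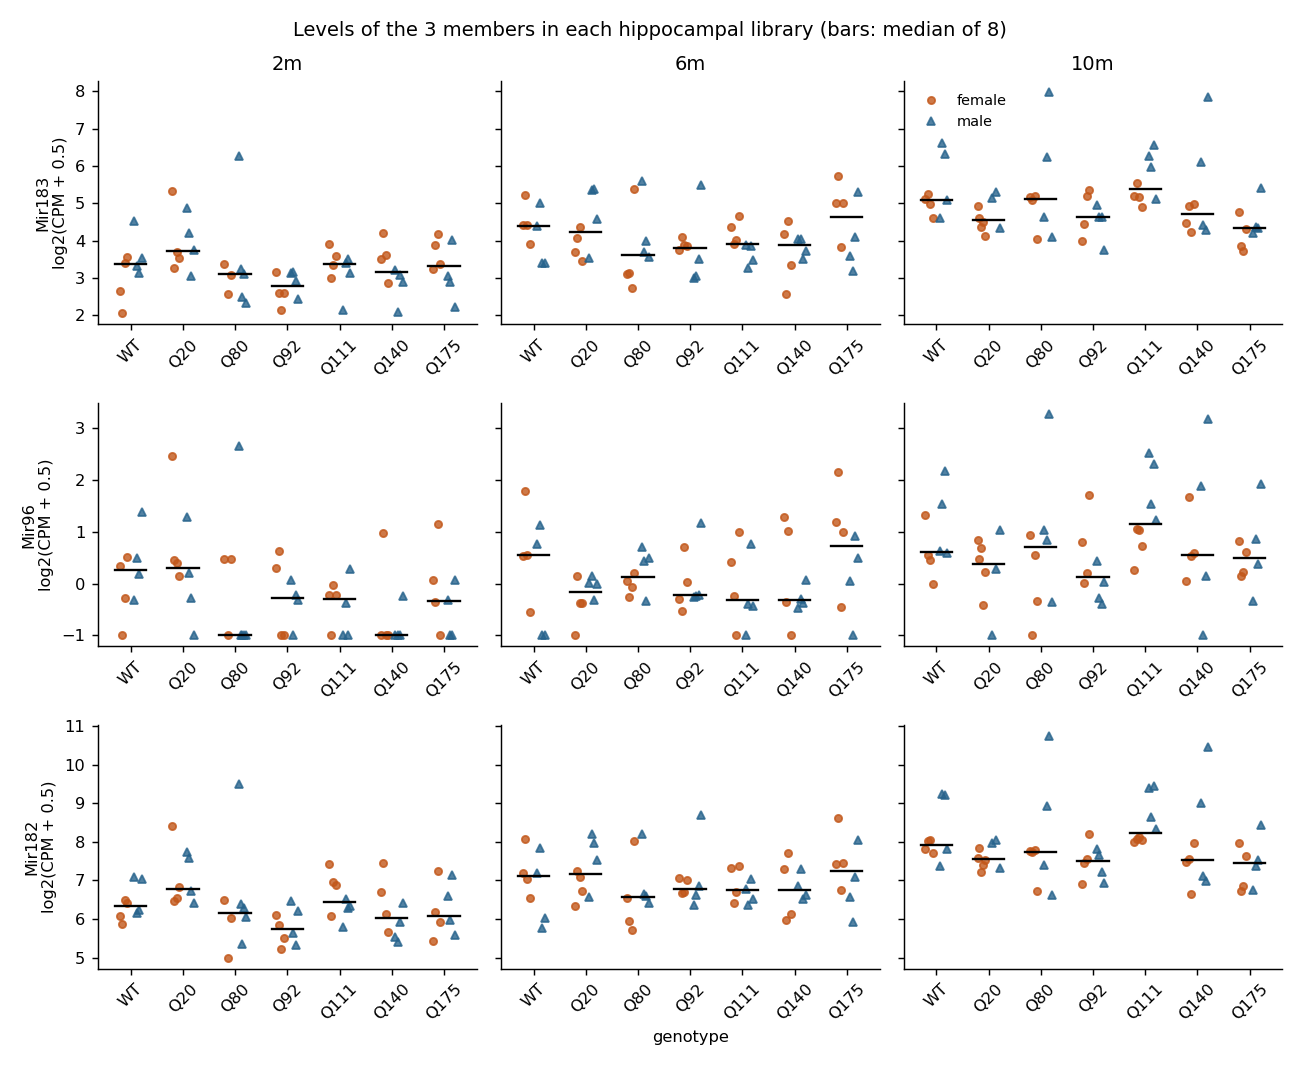
Levels of Mir183, Mir96 and Mir182 on a log2(CPM + 0.5) axis in each library, by genotype and age; circles are females, triangles are males, and bars are medians of 8 libraries. The medians of Mir182 lie between 52.9 and 109 CPM at 2m and between 174 and 303 CPM at 10m, and single libraries stand far above their groups.

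The estimated step from 2m to 6m was smaller than that from 6m to 10m for each member, a difference that was not tested. At 6m against 2m, Mir183 rose by 0.78 ± 0.17 (adjusted p = 3.63e-05, edgeR) and Mir182 by 0.57 ± 0.16 (adjusted p = 0.00157), whereas Mir96 differed by 0.22 ± 0.30 (adjusted p = 0.518). Of the tested transcripts 28.7% were called higher in this comparison. At 10m against 6m all 3 members rose, by 1.03 ± 0.17 (Mir183), 0.95 ± 0.17 (Mir182) and 1.04 ± 0.28 (Mir96), with adjusted p from 6.39e-08 to 5.58e-04, in a comparison that called 34.5% of transcripts higher. Without the WT and Q175 groups, whose 6m libraries form a block of their own (below), Mir182 at 6m against 2m differed by 0.41 (adjusted p = 0.0925) and Mir96 by -0.19.

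The rise at 10m was present within each sex and in most genotypes. In females the difference between 10m and 2m was 1.37 for Mir183 and 1.15 for Mir182, and in males it was 2.26 and 1.93 (adjusted p from 3.25e-10 to 1.11e-07). Mir96 passed the test in males (1.84, adjusted p = 3.23e-04) and not in females (0.63, adjusted p = 0.214); the difference between the sexes was not tested. In the controls alone Mir183 rose by 1.32 (adjusted p = 2.24e-04) and Mir182 by 1.10 (adjusted p = 6.50e-04), and Mir96 differed by 0.13 (adjusted p = 0.911). The share of all transcripts called higher was not computed for single sexes or for the controls alone.

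Within single genotypes, Mir183 was called higher at 10m in 6 of 7 and Mir182 in 5 of 7. In WT mice Mir183 rose by 2.11 ± 0.36 and Mir182 by 1.83 ± 0.33, where 5.11% of all transcripts were called higher. In Q92 the rises were 1.99 and 1.71 (background 6.38%). In Q111 they were 2.46 and 2.03 (6.17%), and in Q140 2.39 and 2.12 (4.47%). Mir96, too, rose in Q111 (3.0 ± 0.66, adjusted p = 0.00486) and in Q140 (2.99 ± 0.92, adjusted p = 0.0333). These 2 calls are not independent of the filter on low counts, as Mir96 reached 5.25 CPM in Q111 and 8.56 CPM in Q140 at 10m. In Q140 at 2m it was listed at 0 in 6 of 8 libraries. The smallest called rises were those of Q175, with 1.08 ± 0.36 for Mir183 and 1.14 ± 0.36 for Mir182 (10.4%). In Q80 (4.47%) Mir183 was called at 2.02 ± 0.62 and Mir182 was not at 1.56 ± 0.61 (adjusted p = 0.110).

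Q20 was the genotype with no member called when all libraries were used, and this changed when 1 animal was left out. There Mir183 differed by 0.57 ± 0.33 (adjusted p = 0.345), Mir182 by 0.40 ± 0.29 (adjusted p = 0.503) and Mir96 by -0.65 ± 0.62 (adjusted p = 0.639), against a background of 4.04% called higher. Without the Q20 female F1 at 2m, which stood far above its group for Mir96, Mir183 was called at 1.0 ± 0.28 (adjusted p = 0.0227, edgeR) and Mir182 at 0.80 ± 0.23 (adjusted p = 0.0284), with the background again at 4.04%, and Mir96 differed by 0.17 (adjusted p = 0.916). This library was left out for its own high value of Mir96, and leaving it out lowers the 2m level of the group. The calls gained therefore cannot show that the missing calls rested on it. The library also had 217 CPM of Mir448, a choroid plexus microRNA, against a median of 26.3 CPM over all libraries. The part of choroid plexus in the result was not tested. Q20 at 2m had the highest median of that age (109 CPM of Mir182) and Q20 at 10m stood in the middle of the order (189 CPM). A test of whether the 10m-to-2m difference varied among the 7 genotypes (genotype by age terms over the libraries of those ages, chosen after the data were seen) gave an adjusted p of 0.23 for Mir183, 0.240 for Mir96 and 0.546 for Mir182, where 2.34% of transcripts were called. The unadjusted p was 0.0204 for Mir183 and 0.0223 for Mir96, and 13% of transcripts had one below 0.05. Without the outlying libraries described below, Mir183 passed this test (adjusted p = 0.0343, edgeR, 102 libraries), while Mir96 (adjusted p = 0.144) and Mir182 (adjusted p = 0.231) did not, and 2.77% of transcripts were called. Those libraries were left out for the high values of the members themselves, which narrows the spread within groups. The fit without them therefore cannot decide whether the rise varied among genotypes.

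The same exclusion, made by the members' own values, changed other calls within genotypes. The calls gained by it in Q20 and Q80 share this limit. In Q80, without the males M3 at 10m and M1 at 2m, Mir182 was called at 1.77 ± 0.40 (adjusted p = 0.00647, edgeR). In Q175, without the libraries F3 at 2m, F2 at 6m and M4 at 10m, Mir183 was no longer called at 0.94 ± 0.33 (adjusted p = 0.0582). Mir183 was then called in 6 of 7 genotypes and Mir182 in 7 of 7, and Mir96 was called in Q111 and Q140 as before. The share of all transcripts called higher in these fits ran from 4.04% in Q20 to 7.66% in Q175, with 4.68% in Q80. Of the 7 epithelial microRNAs described below, with all libraries, 4 were called higher at 10m in WT (list median 0.51), 1 in Q20 (0.10), 2 in Q80 (0.95), 3 in Q92 (0.69), 5 in Q111 (1.38), 4 in Q140 (1.20) and 3 in Q175 (0.85).

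**Figure D2:**
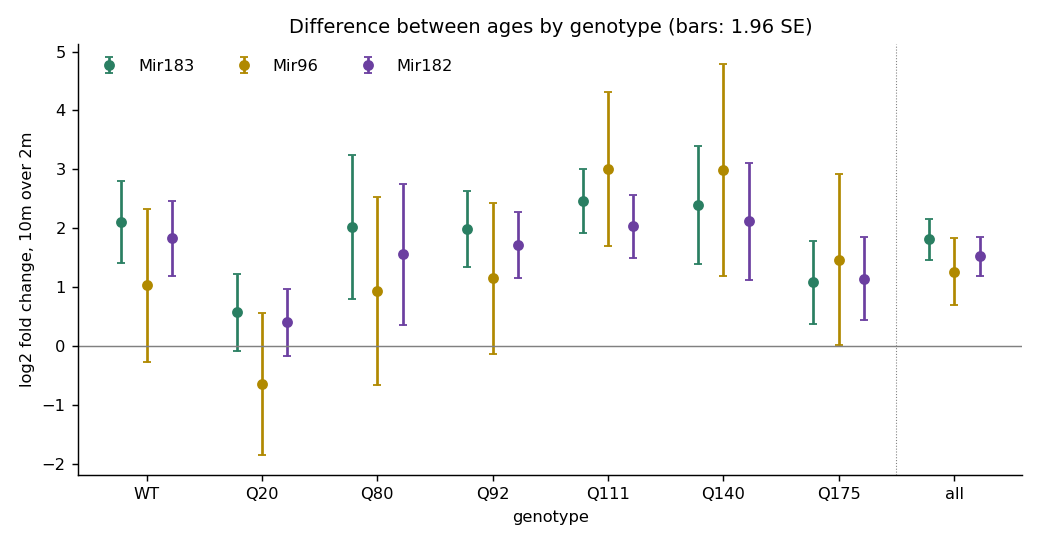
Log2 fold change of each member at 10m over 2m in each genotype and over all genotypes; points are edgeR estimates and bars are 95% intervals. The estimates of Mir183 lie between 0.57 in Q20 and 2.46 in Q111, and the pooled estimate is 1.81.

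In some genotypes the ages separated completely. Every 10m library exceeded every 2m library of the same genotype for Mir183 in WT, Q92, Q111 and Q140, and for Mir182 in WT, Q92 and Q111. Such a separation in at least 4 genotypes was seen for 0.426% of the tested transcripts, and in at least 3 for 1.28%. For Mir96 the ages overlapped in every genotype. In Q111, Mir182 ran from 257 to 694 CPM at 10m (median 303), against 54.7 to 173 CPM at 2m (median 86.3). In the same genotype Mir183 ran from 29.2 to 93.7 CPM at 10m (median 41.2), against 3.95 to 14.5 CPM at 2m (median 9.89).

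Age and library batch cannot be told apart, because the L codes in the library names, used here as batches, are not shared by 10m and 2m. What these codes stand for is not stated. Some L codes of 6m recur at 2m or 10m, and whether these mark the same run is not known here. By L code, the median of Mir182 at 10m was 195 CPM (16 libraries), 221 CPM (30 libraries) and 223 CPM (10 libraries). At 2m it was 68.1 CPM (6 libraries), 87.9 CPM (30 libraries) and 74.0 CPM (20 libraries). Because no code is shared by 10m and 2m, these medians cannot measure a batch difference between those ages. Such a difference was not tested. At 6m the median of Mir182 was 140 CPM in a block of 16 libraries, here called block A, and 104 CPM in the other 40. Block A holds all WT and Q175 libraries of 6m and nothing else. In bulk tissue, fewer cells of a type and less RNA per cell also cannot be told apart.

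With the CAG repeat the members showed no called change. The slope of a member on repeat length, with sex and batch in the fit and 7 repeats for WT, is given as log2 change per 100 CAG. At 10m the slope was -0.17 ± 0.23 for Mir183, -0.08 ± 0.22 for Mir182 and 0.20 ± 0.32 for Mir96 (56 libraries, adjusted p from 0.723 to 0.835). None of the 3 members passed at 10m, where 11.1% of transcripts were called by edgeR, none had an unadjusted p below 0.05, and DESeq2 called 0 members. The 95% intervals of -0.63 to 0.29 for Mir183 and -0.52 to 0.35 for Mir182 bound the size that these data leave for a slope.

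No member was called at the earlier ages either. At 6m the slopes were -0.07 ± 0.19 (Mir183), -0.02 ± 0.17 (Mir182) and 0.28 ± 0.28 (Mir96), none called and none with an unadjusted p below 0.05, and edgeR called 1.28% of transcripts. At 2m they were -0.31 ± 0.21 (Mir183), -0.33 ± 0.20 (Mir182) and -1.06 ± 0.40 (Mir96). Mir96 alone had an unadjusted p below 0.05 at 2m (0.00978, adjusted p = 0.511 in edgeR), in a comparison that called 0.213% of transcripts, and DESeq2 called no member at either age. When the 6m and 10m tests were combined, the members had adjusted p from 0.501 to 0.849 and 14.9% of transcripts were called.

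**Figure D3:**
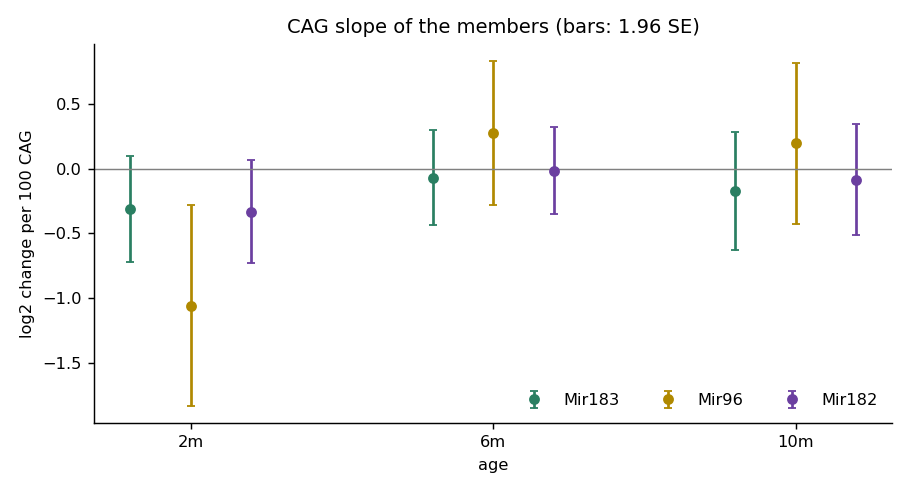
CAG slope of each member at each age, in log2 change per 100 CAG; points are edgeR estimates and bars are 95% intervals. The estimates of Mir183 and Mir182 lie between -0.33 and -0.02 at all ages, and only the bar of Mir96 at 2m (-1.06) stays clear of 0.

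The slopes themselves were compared between ages and sexes. The slope of Mir96 was higher by 1.38 ± 0.50 at 6m than at 2m (unadjusted p = 0.00593, adjusted p = 0.214, edgeR) and by 1.31 ± 0.49 at 10m than at 2m (unadjusted p = 0.00892, adjusted p = 0.155). No difference of slopes between ages was called for a member, where 0.213% (6m minus 2m), 2.34% (10m minus 2m) and 0.638% (10m minus 6m) of transcripts were called. Slopes of females minus slopes of males were between -0.07 and 1.15 for the members and none was called or had an unadjusted p below 0.05, with a background of 0% at 2m, 0.213% at 6m and 1.06% at 10m. DESeq2 called no member in these comparisons.

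Against the controls, Q175 hippocampus at 10m had the lowest medians of the 7 genotypes for Mir183 and Mir182. Mir183 had 12.8 to 41.7 CPM in Q175 (median 19.7, 8 libraries), against 17.0 to 97.4 CPM in the controls (median 30.5, 16 libraries). Mir182 had 105 to 347 CPM in Q175 (median 174), against 148 to 607 CPM in the controls (median 224). The groups overlapped for both. The log2 difference was -0.69 ± 0.26 for Mir183 (unadjusted p = 0.0163, adjusted p = 0.0897, edgeR, with 25.7% of transcripts below an unadjusted 0.05) and -0.45 ± 0.25 for Mir182 (adjusted p = 0.267), so neither was called, while 11.9% of transcripts were; DESeq2 called 0 members. Mir96 had a median of 0.92 CPM in Q175 and 0.99 CPM in the controls.

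The difference of Mir183 at 10m lay close to the threshold. With WT alone as the control it was -1.04 (adjusted p = 0.0160), and with Q20 alone it was -0.24 (adjusted p = 0.631). Leaving out the highest Q175 library, male M4, gave -0.83 (adjusted p = 0.0450), and leaving out the Q20 male M3 gave -0.75 (adjusted p = 0.0475). The share of all transcripts called was not computed in these settings. Of the 7 epithelial microRNAs described below, 1 was called higher in Q175 at 10m and none lower, with a list median of -0.43. The called gene was Mir203 (0.44, adjusted p = 0.0024, edgeR). The genes of the Mir200 family lay between -0.80 (Mir141) and -0.41 (Mir200b), and Mir205 was at 0.14. At 2m, where 0% of transcripts were called, and at 6m, where 3.4% were, no Q175 difference of a member had an unadjusted p below 0.05. DESeq2 called no member there. At 6m the Q175 medians were instead the highest of the 7 genotypes for all 3 members (152 CPM of Mir182), with log2 differences of 0.32 ± 0.37 (Mir182), 0.33 ± 0.38 (Mir183) and 0.43 ± 0.61 (Mir96). Without the Q175 female F2 they were 0.0064 (Mir182), 0.08 (Mir183) and -0.021 (Mir96). Because block A holds all WT and Q175 libraries of 6m and no Q20 library, the batch term sets Q175 in effect against WT at this age and the other alleles against Q20. With WT alone the Q175 differences were 0.29 (Mir182), 0.29 (Mir183) and 0.46 (Mir96). With Q20 alone, where block and genotype cannot be told apart, they were 0.17, 0.28 and 1.63 for the same members (adjusted p = 0.0510 for Mir96, edgeR).

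The intermediate alleles gave no edgeR call for a member at any age. Q140, Q92 and Q80 against controls called 0% of transcripts at all 3 ages, and Q111 called 0.213% at 6m and 0% otherwise. At 2m all members had an unadjusted p below 0.05 in Q92, as did 4.89% of transcripts, with log2 differences of -1.11 ± 0.26 for Mir182 (adjusted p = 0.163, edgeR), -1.10 ± 0.35 for Mir183 (adjusted p = 0.877) and -1.49 ± 0.68 for Mir96 (adjusted p = 0.882). DESeq2 called Mir182 in this comparison (-1.13, adjusted p = 0.00115) and no other member in any allele comparison. Mir182 had 36.6 to 88.2 CPM in Q92 at 2m (median 52.9), against 58.5 to 339 CPM in the controls (median 91.3), so the groups overlapped.

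Unadjusted p below 0.05 also occurred for 2 members in Q140 at 2m (Mir182 -0.67, Mir96 -2.11, with 4.68% of transcripts), for 1 in Q111 at 2m (Mir96 -1.71, with 6.17%) and for 2 in Q111 at 10m (Mir182 0.58, Mir96 0.98, with 2.34%). In the other comparisons of Q140, Q111, Q92 and Q80 with controls, no member had an unadjusted p below 0.05.

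The order of the genotypes changed from age to age. From low to high, the medians of Mir182 ran Q92, Q140, Q175, Q80, WT, Q111, Q20 at 2m, then Q80, Q140, Q111, Q92, WT, Q20, Q175 at 6m, and Q175, Q92, Q140, Q20, Q80, WT, Q111 at 10m. For each member and age, the ranges of all 6 neighbouring pairs in such an order overlapped, as did those of all 21 pairs of genotypes. The share of all tested transcripts with such overlap was not computed, so it cannot be read as particular to the members. At 6m the places of WT and Q175 in the order cannot be told apart from block A.

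The 2 control groups were compared with each other, since they were pooled above. At 10m the log2 differences of Q20 from WT were -0.83 ± 0.23 (Mir182), -0.88 ± 0.27 (Mir183) and -1.46 ± 0.53 (Mir96), with unadjusted p of 0.00289, 0.00573 and 0.0159 that ranked 1, 2 and 4 of 470 by size in edgeR, where 4.04% of transcripts lay below an unadjusted 0.05. The adjusted p was 0.922 for each, 0% of transcripts were called, and DESeq2 called 0 members. Mir182 had 148 to 262 CPM in Q20 (median 189), against 165 to 607 CPM in WT (median 242). The WT males M2 and M3, at 607 and 594 CPM, were the highest WT libraries. The epithelial list had a median of -0.52 in Q20 against WT at 10m, with none of its 7 genes called. At 2m no member differed with an unadjusted p below 0.05 (0% called, DESeq2 0 members), and at 6m, where Q20 and WT lie in different library blocks and 49.1% of transcripts were called, no member did either.

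At 10m the highest levels were found in males. Mir182 ran from 99.6 to 292 CPM in the 29 females (median 211), against 97.7 to 1710 CPM in the 27 males (median 224). Above the highest female lay 11 males for Mir182, 9 for Mir183 and 7 for Mir96. The ranges of the sexes overlapped. The female median of Mir183 and of Mir182 was lower in 6 of 7 genotypes, Q92 being the exception.

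Females minus males at 10m, the difference was -0.72 ± 0.24 for Mir183 (unadjusted p = 0.00382), -0.68 ± 0.23 for Mir182 (0.00574) and -0.77 ± 0.35 for Mir96 (0.0312). After adjustment in edgeR the p was 0.180, 0.180 and 0.341, so no member was called, as was true of all transcripts (0%), of which 13.4% had an unadjusted p below 0.05; DESeq2 called 0 members. Without the outlying libraries named below, the differences were -0.42, -0.40 and -0.41. The epithelial list had a median of -0.18 in the same comparison, with none of its 7 genes called. Within the list, Mir200c was at -0.86 (unadjusted p = 0.00492, adjusted p = 0.180, edgeR) and Mir141 at -0.76 (unadjusted p = 0.0110, adjusted p = 0.273). Its other genes lay between -0.24 (Mir200a) and 0.03 (Mir203). At 2m (0.426% called) and 6m (0%) no member differed with an unadjusted p below 0.05, and DESeq2 called none.

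The 3 members varied together from animal to animal. With log2(CPM + 0.5) centred on the mean of each of the 21 groups, Mir183 and Mir182 had a Pearson r of 0.93 and a Spearman rho of 0.88 over all libraries. The r was 0.73 for Mir96 and Mir182 (rho 0.62) and 0.68 for Mir183 and Mir96 (rho 0.56). In a permutation test within groups (100000 permutations, 2-sided), p was 1e-05 for each r and rho, the smallest that these permutations can give, and for r it was 1e-05 after Benjamini-Hochberg adjustment over the 3 pairs. Without the 2 libraries farthest from the median of the first-named member, r was 0.91, 0.68 and 0.62. Within single L codes and blocks the r of Mir183 and Mir182 lay between 0.79 and 0.97 and that of Mir96 and Mir182 between 0.10 and 0.92. All members share a library's depth and scaling, and the log2 total count had an r of -0.11 with Mir183, -0.02 with Mir96 and -0.13 with Mir182.

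The spread behind these relations was wide. The within-group SD was 0.77 on the log2 scale for Mir182, 0.79 for Mir183 and 0.84 for Mir96, against a median of 0.28 over the 470 tested transcripts. By this SD the members ranked 68th, 65th and 58th of 470.

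**Figure D4:**
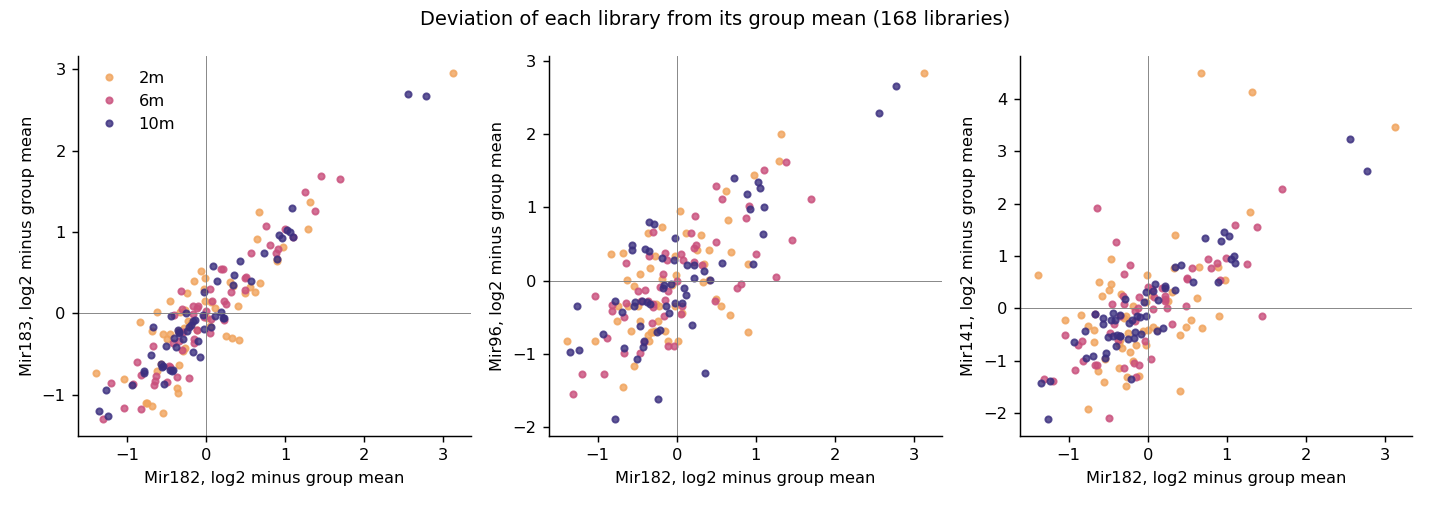
Deviation of each library from its group mean, in log2(CPM + 0.5), for Mir183, Mir96 and Mir141 against Mir182, with 1 point for each library and colours for ages. The r values are 0.93, 0.73 and 0.71, and the same few libraries lie at the upper right of each panel.

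Outside the cluster, the microRNAs whose pattern was most like that of the members were all of the Mir200 family. This family of 5 genes, known for maintaining the epithelial state, is encoded by Mir200c with Mir141 on chromosome 6 and by Mir200a, Mir200b and Mir429 on chromosome 4. For each member these 5 were the most alike of the other 467 tested transcripts. With Mir182 the r was 0.71 for Mir141, 0.57 for Mir200c, 0.56 for Mir200a, 0.40 for Mir429 and 0.35 for Mir200b, against a median of -0.0049 over the other tested transcripts. With Mir183 it ran from 0.74 (Mir141) to 0.36 (Mir200b), and with Mir96 from 0.59 (Mir141) to 0.27 (Mir429), Mir96 and Mir429 being at -0.13 within 6m. These values are a description over libraries that share depth and scaling. Mir141 and Mir182 had an r of 0.58 at 2m, 0.66 at 6m and 0.92 at 10m, and between 0.21 and 0.98 within L codes and blocks. The other genes of the family were less even: within L codes and blocks their r with Mir182 ran from 0.19 to 0.81 (Mir200c), from -0.13 to 0.89 (Mir200a), from -0.13 to 0.77 (Mir429) and from -0.06 to 0.77 (Mir200b).

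Markers of other cells were examined through lists of microRNAs. Of 7 epithelial microRNAs (the Mir200 family with Mir203 and Mir205), the median r with Mir182 was 0.40 (0.03 to 0.71), the lowest being that of Mir203, a microRNA of the epidermis. The list medians were 0.0056 for choroid plexus (8 tested), -0.04 for meninges and mesenchyme (4), -0.0046 for vessel (3), -0.07 for red blood cell (3), -0.02 for microglia and leukocyte (5), -0.07 for oligodendrocyte (3), -0.08 for muscle (2) and 0.0033 for hindbrain and spinal cord (3). For the 14 neuronal microRNAs the median was -0.08. The list of sensory and neuroendocrine microRNAs, which also holds the Mir200 family, had a median of 0.09 over 12 genes, and its genes outside that family lay between -0.15 and 0.11.

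**Figure D5:**
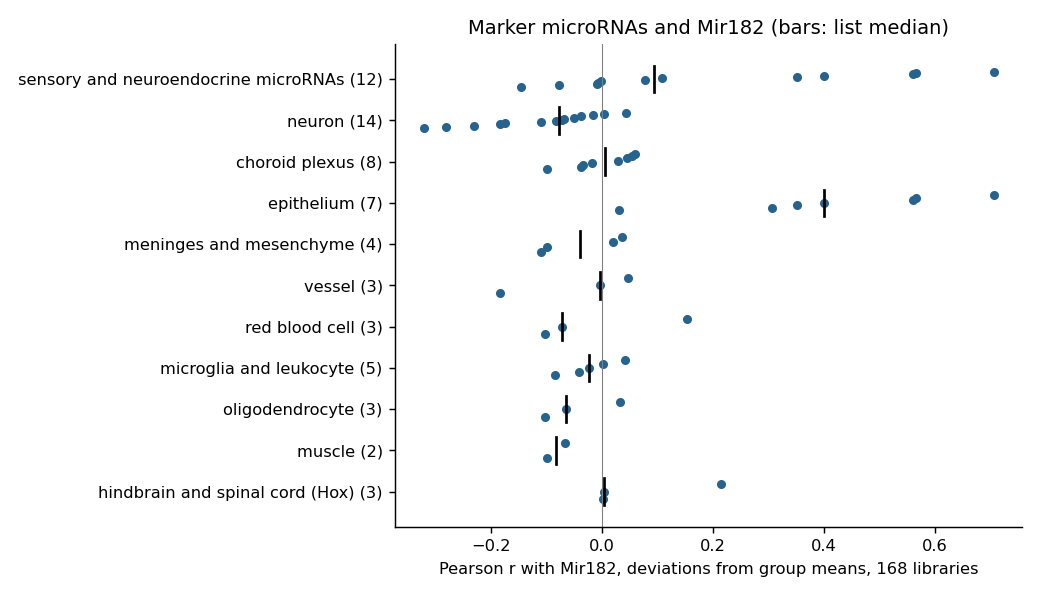
Pearson r with Mir182 of each tested marker microRNA, from deviations from group means over all libraries, by list, with the number tested in parentheses; bars are list medians. The epithelial list has a median of 0.40 and the neuronal list one of -0.08, and the upper values in the sensory and neuroendocrine list are those of the Mir200 family.

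The epithelial microRNAs also rose with age. At 10m against 2m, 6 of 7 were called higher and none lower, where 22.1% of all transcripts were called higher, with a list median of 0.86 on the log2 scale against -0.0032 over all tested transcripts. Mir200a rose by 1.23 ± 0.13, Mir141 by 1.10 ± 0.28, Mir200c by 0.92 ± 0.28, Mir200b by 0.86 ± 0.13, Mir429 by 0.78 ± 0.13 and Mir203 by 0.48 ± 0.03 (adjusted p from 8.96e-28 to 0.00398, edgeR). Mir205, found in stratified epithelia, differed by -0.32 ± 0.19. The summed level of the list had a median of 118 CPM at 2m (66.1 to 349), 135 CPM at 6m (89.8 to 200) and 203 CPM at 10m (126 to 566). Mir200c was listed at 0 in 23 libraries and Mir205 in 3. At 6m against 2m, where Mir183 and Mir182 rose, 1 of the 7 was called higher against 28.7% of all transcripts. The part of epithelial cells in the members' levels was not tested.

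The libraries with the highest levels of the cluster had high levels of the Mir200 family as well. The highest was the Q80 male M3 at 10m, with 1710 CPM of Mir182, 251 CPM of Mir183 and 9.17 CPM of Mir96, against medians of 124, 15.9 and 0.60 CPM over all libraries. It had 69.4 CPM of Mir141 and 90.4 CPM of Mir200a, against medians of 4.49 and 15.3 CPM. The next was the Q140 male M4 at 10m, with 1413 CPM of Mir182, 88.4 CPM of Mir141 and 106 CPM of Mir200a. These libraries ranked second and first of all libraries by the summed epithelial list, and 72nd and 107th by the neuronal list. The Q80 male M1 was the highest at 2m, with 730 CPM of Mir182, 33.2 CPM of Mir141 and 36.1 CPM of Mir200a.

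By the summed choroid plexus list, the Q80 male at 10m ranked 100th with 1344 CPM, the Q140 male 153rd with 850 CPM and the Q80 male at 2m 72nd with 1503 CPM, against a median of 1408 CPM over all libraries. The Q140 male was among the low libraries by this list and none of the 3 was among the highest. The Q20 female F1 at 2m, with 339 CPM of Mir182, ranked 18th by the same list with 3629 CPM. The part of choroid plexus in the members' levels was not tested. Mir448, found in choroid plexus, had 32.1 CPM in the Q80 male at 10m, 15.6 CPM in the Q140 male and 22.7 CPM in the Q80 male at 2m, against a median of 26.3 CPM. Mir204, also abundant in choroid plexus and retinal pigment epithelium, had 6510, 5940 and 6409 CPM in the same order, against a median of 6581 CPM. The WT male M1 at 2m had 109 CPM of Mir141 and 137 CPM of Mir182. Its Mir182 was the highest of its group, which had a median of 79.9 CPM. Its Mir183, at 22.5 CPM, stood far above a group median of 9.81 CPM.

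The pooled comparisons were recomputed without these animals. Leaving out 12 libraries in which a member stood far above its group of 8 (chosen after the data were seen) gave rises at 10m against 2m of 1.83 for Mir183, 1.57 for Mir182 and 1.59 for Mir96 (adjusted p from 5.07e-24 to 2.24e-07, edgeR, 156 libraries). The share of all transcripts called was not computed in this setting. Without these libraries the CAG slopes at 10m were -0.28 for Mir183, -0.18 for Mir182 and 0.07 for Mir96, with no member called. In Q140 at 10m the difference of Mir182 from controls was -0.17 without them and 0.32 with them, and in Q80 it was -0.24 and 0.33.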

How the data were processed

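Short RNA of hippocampus was sequenced on Illumina HiSeq (strand-specific single-end reads, 1 mouse per library). The authors aligned reads to mm10 with STAR at default settings and counted them with HTSeq. CASAVA 1.8.2 is listed in the submitters' notes. The authors deposited per transcript estimated counts, of which a median of 51.5% of the values above 0 in a library were whole within 0.001, and RPKM values. The values of the 3 members were whole in all libraries, and counts were rounded before testing. The deposited RPKM equalled RPKM from the library's own counts in the 16 libraries of 1 block (ratio 1.00) and was 0.644 to 0.685 times that in the other 152 for Mir183, so RPKM entered no test. Of 1626 transcripts, 1228 matched GENCODE M21, and the 470 that passed edgeR's filter (minimum count 10) were tested. Reads shared between near-identical hairpins could not be followed beyond the authors' counting.

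Tests used edgeR 4.0.16 in R 4.3.3 (quasi-likelihood, TMM factors of 0.916 to 1.22, Benjamini-Hochberg adjustment over 470 transcripts, threshold 0.05), with sex and, within an age, the batch read from library names as terms. The batch term was left out of the sex and the Q20 against WT comparisons at 6m, where it could not be fitted. SE is the size of the log2 fold change divided by the square root of F. The test was tried on simulated data before use. Alternatives were DESeq2 1.42.0, RLE factors, no filter, robust dispersion, no batch term, a replicate block, other controls, single sexes and left-out libraries. The settings without outlying libraries, the age comparisons within sex, in controls, with total-count scaling or without WT and Q175, and the fits within genotype were chosen after seeing the data. The members, the marker lists and the rule for named genes (the members, microRNAs sharing a seed or within 200 kb, the 5 transcripts most alike, and list genes by count or where a test or a high library is described) were chosen with earlier results of these data known. Of 588 pairs of libraries within a group, none held identical counts. Replicate numbers did not pair the libraries: deviations of 492 same-numbered pairs had a median r of -0.0031, and 110 exceeded 0.1.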

Additional observations from a re-analysis of the deposited data

Results flagged for a closer look

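In groups of 8 libraries, the highest or lowest value was set against the rest of its group by Dixon's gap-to-range ratio with its 95% critical value. Of 63 sets of a member and a group, 20 held such a library, all of them high, and they came from 12 libraries (7 male, 5 female). The critical value flags about 1 in 20 groups by chance where values are normally distributed. It was applied to CPM without a log scale, and these are skewed to high values, so the share flagged by chance is not known here. The members are correlated, so the flags are not independent. The rule was not applied to the other tested transcripts, so the number of flags cannot be read as particular to the members. Values are in CPM, and each is the highest of its group.

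Mir183 stood apart in the Q140 male M4 at 10m (232), the Q80 male M3 at 10m (251), the Q80 male M1 at 2m (76.3), the Q92 male M4 at 6m (44.2) and the WT male M1 at 2m (22.5). Mir182 did so in the first 4 of these libraries, at 1413, 1710, 730 and 417, and in the Q140 female F2 at 2m (174). Mir96 stood apart at 10m in the Q140 male M4 (8.56), the Q80 male M3 (9.17), the Q175 male M4 (3.30) and the Q92 female F4 (2.79). At 6m it did so in the Q175 female F2 (3.98). At 2m it did so in the Q80 male M1 (5.82), the Q20 female F1 (5.01), the WT male M4 (2.13), the Q175 female F3 (1.72) and the Q140 female F2 (1.46). A few counts make up such values for Mir96: that of the Q140 female F2 at 2m rests on 5 counts. The Q20 female F1 at 2m also had 15096 CPM of Mir204 and 217 CPM of Mir448, against medians of 6581 and 26.3 CPM over all libraries.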

How the results depend on the processing

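Outside the settings that left out 1 library, 728 of 772 recomputed values kept their direction and their side of the threshold. At 10m against 2m, Mir183 ranged from 1.32 to 2.26 and Mir182 from 1.10 to 1.93 over 9 alternatives, all called. DESeq2 called 216 of 470 transcripts in this comparison, in either direction. For the settings of this section other than DESeq2, the share of all transcripts called was not computed. Calls of members in this section therefore cannot be read as particular to them. Mir96 lost its call at 10m against 2m in controls alone (0.13) and in females (0.63), and at 10m against 6m in the same settings (0.77 and 0.29). At 6m against 2m, the controls alone called 0 members (Mir183 0.61, Mir182 0.34, Mir96 -0.64). In that comparison males called only Mir183 (0.76, 1 member), with Mir182 at 0.56, as did the genotypes without WT and Q175 (Mir183 0.59, with Mir182 at 0.41 and Mir96 at -0.19), and Mir96 passed without the outlying libraries (0.77).

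CAG slopes, none of them called, turned direction at 10m without Q175 (Mir182 0.18, Mir183 0.18), in females at 2m (Mir183 0.040), at 6m (Mir182 0.19, Mir183 0.21) and at 6m and 10m combined (Mir182 0.032, Mir183 0.029), in males at 6m (Mir96 -0.080), and without the batch term at 6m (Mir182 0.0078). In Q175 against controls at 10m, 1 member, Mir183, was called with WT alone as control (-1.04) and without the outlying libraries (-0.83). Mir96 there, at 0.0018, turned with RLE factors (-0.0029), no filter (-0.0029), no batch term (-0.11), WT alone (-0.41) and without the outlying libraries (-0.48). Mir183 at 2m was 0.016 against WT alone. DESeq2 called 1 member in Q92 against controls at 2m (Mir182 -1.13). Without the outlying libraries, uncalled differences turned in Q140 at 10m (Mir182 -0.17, Mir183 -0.14), Q80 at 10m (Mir182 -0.24, Mir183 -0.019, Mir96 -0.29), Q111 at 2m (Mir182 0.024), Q175 at 6m (Mir96 -0.021) and females against males at 2m (Mir183 0.012). The cause was not tested.

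With the replicate number as a block in place of sex, 20 of 21 member values kept direction and call, and Mir96 in Q175 at 10m was -0.15.

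With each library left out in turn, the 10m slopes were -0.33 to -0.09 (Mir183), -0.21 to -0.02 (Mir182) and 0.07 to 0.31 (Mir96). The 6m slopes were -0.16 to 0.0022 (Mir183), -0.13 to 0.052 (Mir182) and 0.09 to 0.46 (Mir96). In Q175 at 10m, Mir183 was -0.83 to -0.57 (0 to 1 members called) and Mir96 -0.48 to 0.23. In Q175 at 6m, Mir96 was -0.021 to 0.79. Depth limits Mir96 most, with a median of 2 counts in a library.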

Other observations

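At 10m against 2m, 104 of the 470 tested transcripts were called higher and 108 lower. Of 14 tested neuronal microRNAs, 2 were called higher and 5 lower (list median -0.03 on the log2 scale). Of 8 for choroid plexus, the tissue that makes cerebrospinal fluid, 3 were higher and 1 lower (median 0.27). The counts were 2 higher and 1 lower of 5 for microglia and leukocyte, 1 higher of 3 each for vessel, red blood cell and oligodendrocyte, 2 higher of 3 for hindbrain and spinal cord, 1 lower of 2 for muscle, and no call of 4 for meninges and mesenchyme (median 0.20).

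Of 12 tested sensory and neuroendocrine microRNAs, 6 rose at 10m against 2m and 2 fell. The 5 genes of the Mir200 family were among those that rose. Mir211, found in pigmented cells, rose by 0.22 on the log2 scale, while Mir7b fell by 0.14 and Mir7-2 by 0.22. Mir204 differed by 0.04 and Mir375, known from pancreatic islets, by -0.20, and neither was called. Mir141 had a CAG slope of -1.83 per 100 CAG at 2m (edgeR, adjusted p = 0.0049), the 1 transcript of 470 called at that age. Its slope was -0.05 at 6m and -0.18 at 10m, and neither was called. At 2m the control libraries Q20 female F1 and WT male M1 had 115 and 109 CPM of Mir141, against a median of 2.44 CPM at that age. The part of these libraries in the slope was not tested.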
